A study of Mus musculus with 6 samples.

Results

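The transcripts described here are those of 8 subunits of CatSper, the calcium channel of the sperm tail, and of Kcnu1, the pore of the sperm potassium channel. They were chosen by name, as Catsper1, Catsper2, Catsper3, Catsper4, Catsperb, Catsperd, Catsperg1, Catsperg2 and Kcnu1, and make up 9 of the 54532 genes in the deposited files. RNA was sequenced from primary cells labelled as pachytene, the meiotic prophase stage in which homologous chromosomes are synapsed, purified from mouse testis by STA-PUT (sedimentation through a density gradient at unit gravity) at about postnatal day 80. The WT group carried the normal MAPS gene, and the KO group was MAPS-/-. The EE_KO group had the genotype MAPSEE;MAPS-/-, labelled as MAPS overexpressed on the KO background, so it shares the deletion with KO. Each group had 2 libraries, purified from 3 mice of 1 genotype in 2 independent experiments. The labels give neither the promoter of the MAPSEE allele, nor the strain, nor whether a library pools mice. The p-values therefore measure only the spread between these libraries, which may be technical.

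CatSper is a cation channel of the principal piece of the sperm flagellum that lets calcium in when the cell interior becomes alkaline and the membrane is depolarised. Catsper1, Catsper2, Catsper3 and Catsper4 encode its pore subunits, and Catsperb, Catsperd, Catsperg1 and Catsperg2 encode auxiliary subunits with large extracellular domains. Kcnu1, also known as Slo3, encodes an alkaline-activated potassium channel that hyperpolarises mouse sperm during capacitation. The channels act in sperm, and their genes are known for transcription that starts in meiotic prophase or after it.

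Libraries held between 14178387 and 16565238 reads on genes, so that 1 read over 2 kb of exon was worth 0.0278 to 0.0357 FPKM (fragments per kilobase of exon, scaled to a library size). The library size that the deposited FPKM imply was 0.878 and 0.932 of the reads on genes in WT, 1.13 and 1.23 in KO, and 0.943 and 0.903 in EE_KO. FPKM in KO are therefore lower against WT than a scaling by reads on genes would give. MAPS itself, 1700102P08Rik in the annotation, was at 157.0 and 150.2 FPKM in WT, 7.97 and 10.1 in KO, and 108.6 and 82.2 in EE_KO. The EE_KO libraries thus lay above KO and below both WT libraries, so the overexpression named in their label is not seen against WT. The KO libraries differed from WT in their cell type markers. The WT and EE_KO libraries also held RNA of spermatid markers, at a summed 1726 to 3532 FPKM in WT and 2229 to 3273 in EE_KO. Pachytene is therefore used as a label only, for every group. Over all tested genes limma called 48.1% lower and 38.0% higher in KO against WT, beside which the marker counts here stand. Pachytene markers fell in 9 of 10, from a summed 6525 to 7037 FPKM in WT to 341.8 to 412.6 in KO, with Sycp1 at 43.2 and 47.9 FPKM in WT and 38.0 and 41.9 in KO as the gene that did not pass. When values were rescaled to TPM (a fixed sum per library) Sycp3 no longer passed either, and Sycp1 stood at 0.28 on the log2 scale. With quantile scaling 8 of the 10 fell and Sycp1 was called higher (0.45, limma adjusted p = 0.0126). Spermatid markers fell in 12 of 12, from 1726 to 3532 FPKM to 19.48 to 19.49. Sertoli markers rose in 8 of 8 (205.5 to 206.6 FPKM in WT, 2757 to 2926 in KO) and Leydig markers in 7 of 7 (56.7 to 105.8 in WT, 2085 to 2173 in KO). Spermatogonial markers rose in 6 of 6 tested, from 20.8 to 22.4 FPKM summed over 8 genes to 188.1 to 229.3. Gfra1, of the same list and below the filter, was at 0.926 and 1.23 FPKM in WT and 0.518 and 0.347 in KO, which is the other direction. Peritubular, endothelial and leukocyte markers rose in 3 of 3 tested (Acta2, Cdh5 and Cd14), from 3.26 to 3.38 FPKM summed over 8 genes to 24.5 to 27.6. Acta2 alone was at 12.8 and 13.1 FPKM in KO. The other 5 were below the filter. Of these, Adgre1 was at 0.375 and 0.571 FPKM in WT and 0.464 and 0.284 in KO, with a lower mean in KO. Ptprc stayed at or below 0.0365 FPKM, and Myh11, Pecam1 and Csf1r had higher means in KO. In EE_KO the same sums were 6272 to 6698 FPKM for pachytene, 2229 to 3273 for spermatid, 187.0 to 340.1 for Sertoli, 81.6 to 173.1 for Leydig, 19.3 to 23.9 for spermatogonial and 3.85 to 6.40 for the last list. No marker of these lists was at 0 in both libraries of a group. The part of these cell type differences in the results below was not tested, and in bulk RNA fewer cells of a type and less RNA per cell cannot be told apart.

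In WT the 9 transcripts spanned 13.1 to 140.1 FPKM on average, and 69.9% to 97.7% of the 15368 tested genes were below them. FPKM is a value per length, so an order of genes by FPKM depends on the exon length used for each. For Catsperg1 and Catsperg2 that length was 7044 and 7030 bases, against 3670 and 3957 in their longest coding transcripts. A shorter length would raise their FPKM, and the order below holds only for the lengths used. Catsper2, a pore subunit, was the highest at 140.1 ± 21.7 FPKM (SD, n = 2), and both of its libraries lay above those of every other member. Catsperd, at 106.7 ± 16.5 FPKM, Catsperg1, at 88.6 ± 17.0, and Catsperg2, at 76.7 ± 11.1, followed, and each overlapped its neighbour in the order. A gap in which no libraries overlapped separated these auxiliary subunits from Catsperb at 29.1 ± 4.72 FPKM. Catsperb, Catsper1 at 28.1 ± 7.87, Catsper4 at 24.6 ± 7.79 and Catsper3 at 20.2 ± 3.91 overlapped in turn. Kcnu1 was the lowest at 13.1 ± 2.83 FPKM and did not overlap Catsper3. In the EE_KO group the order was the same except that Catsper1, at 30.2 ± 3.38 FPKM, came before Catsperb at 28.2 ± 1.36, and those libraries overlapped.

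**Figure D1:**
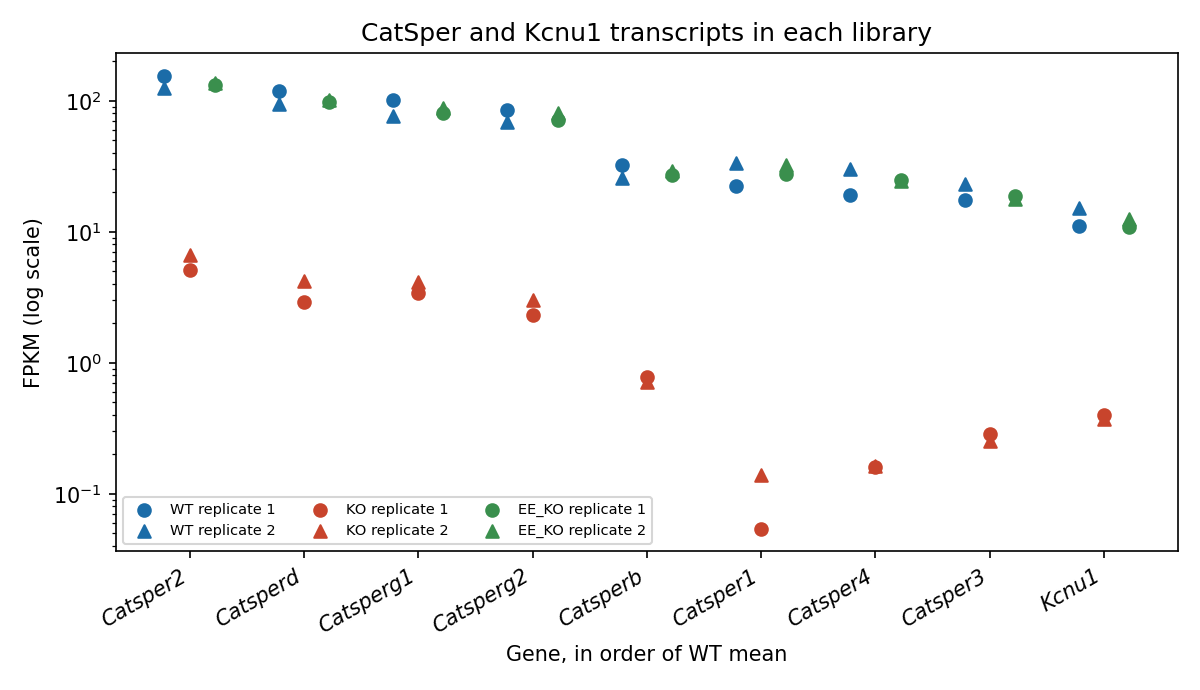
FPKM on a log axis of the 8 CatSper genes and Kcnu1 in each of the 6 libraries, with a circle for replicate 1 and a triangle for replicate 2. The KO libraries lie below all WT and EE_KO libraries for each gene, down to 0.0540 FPKM for Catsper1, and the WT and EE_KO libraries lie close together.

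Promoter sequences of members are shown for reference, and the part of any motif in the differences between groups was not tested. RefSeq windows on GRCm38.p6, from 250 bases before to 50 bases after a start site, matched 6 of the 9 genes (8 windows), with no entry for Catsper1, Catsperg2 and Kcnu1. The stretches below lie outside annotated exons, except that of Catsper2, which is the 30 bases around its match in a window also covered by an exon of the neighbouring gene Pdia3. All are written from 5′ to 3′ on the strand of the gene, with motif matches in capitals.

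Catsper2, chr2:121413818-121413847, minus strand: ggaacagctggtAACTGCCgattggcgggc

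Catsperb, chr12:101404423-101404652, plus strand: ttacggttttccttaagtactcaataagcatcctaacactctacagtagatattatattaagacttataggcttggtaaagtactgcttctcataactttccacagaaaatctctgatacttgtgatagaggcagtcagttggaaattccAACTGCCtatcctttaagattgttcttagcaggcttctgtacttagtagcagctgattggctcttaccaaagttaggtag

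Catsperd, chr17:56626888-56627046, plus strand: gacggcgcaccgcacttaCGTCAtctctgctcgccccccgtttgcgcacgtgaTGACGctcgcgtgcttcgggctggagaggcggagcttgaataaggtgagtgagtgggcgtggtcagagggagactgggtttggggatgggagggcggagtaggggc

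Catsperg1, chr7:29214036-29214283, minus strand: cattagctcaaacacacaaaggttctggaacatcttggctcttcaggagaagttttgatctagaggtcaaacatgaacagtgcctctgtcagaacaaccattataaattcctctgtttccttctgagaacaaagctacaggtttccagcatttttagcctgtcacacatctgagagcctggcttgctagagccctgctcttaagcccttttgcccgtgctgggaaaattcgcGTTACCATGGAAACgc

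Catsper4, chr4:134227384-134227633, minus strand: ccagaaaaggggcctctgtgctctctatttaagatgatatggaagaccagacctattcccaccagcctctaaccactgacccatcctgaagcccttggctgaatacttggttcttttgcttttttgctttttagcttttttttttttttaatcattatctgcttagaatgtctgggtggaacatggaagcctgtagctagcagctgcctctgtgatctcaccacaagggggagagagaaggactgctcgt

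The motif GGCAGTT, the core bound by MYB factors such as the meiotic regulator MYBL1, was searched on both strands and lay in the windows of Catsper2, at position -43 from the start site, and Catsperb, at -100 and -13. The match at -13 lies beyond the printed stretch. Of all 32851 promoter windows of the same length, 4.12% held it. TGACG, the short form of the cAMP response element, lay in Catsper2 at -77 and in the more upstream window of Catsperd at -160, -141 and -106, and in 20.8% of all windows. The Catsper2 match and the Catsperd match at -160 fall outside or at the edge of what is printed. The full element TGACGTCA (1.79% of all windows), which contains TGACG, and GTTGCC (12.5%), part of the X-box bound by RFX factors, were in no member's window. The Catsperg1 stretch holds near its end GTTACCATGGAAAC at position -18, a match to a paired X-box in which CCATGG has GTT before it and AAC after it, each set off by 1 free base, and 0.128% of all windows hold that form. That last motif was chosen after the sequences were read. The windows of Catsper3 and Catsper4 held none of these letters. Nor did the more downstream windows of Catsperd (chr17:56627893-56628192) and Catsperg1 (chr7:29210876-29211175), which, like that of Catsper3, are not printed. The upstream part of that Catsperd window adjoins the annotated gene start at base 56628143. The printed Catsperd stretch, from the window with the TGACG matches, ends before it at base 56627046 and does not adjoin that start.

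All 9 transcripts were lower in KO than in WT. The mean KO level was between 0.345% of WT for Catsper1 and 4.26% for Catsperg1, that is 289.8 to 23.5 times lower, with a median of 34.0 times. With limma on log2(FPKM + 1), 9 of 9 fell at a Benjamini-Hochberg adjusted p below 0.05, against a background of 48.1% of the 15368 tested genes called lower. Both KO libraries lay below both WT libraries for each of the 9, as they did for 51.8% of all tested genes. Falls of at least 4-fold were called for 20.9% of tested genes and for all 9 members. The median log2 difference was -4.35 over the members and -0.29 over all tested genes. On this scale 2.5% of tested genes were at or below Catsper1 and 8.77% at or below Kcnu1. The added 1 FPKM makes these log2 differences smaller than the ratios of the means for genes near 0.

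Of the pore subunits, Catsper1, Catsper3 and Catsper4 fell to traces, and Catsper2 kept the highest KO FPKM of the 9 genes. Catsper1 (ENSMUSG00000038498, chromosome 19, bases 5335741 to 5344280, plus strand) encodes the subunit after which the channel is named, needed for the channel current and for hyperactivated swimming. It measured 22.5 and 33.6 FPKM in WT, 0.0540 and 0.140 in KO, and 27.8 and 32.5 in EE_KO. The KO values stand for 2 and 5 reads, using the exon length that gives whole reads for this gene (2061 bases against 2188 in GENCODE M21). From the reads of both libraries Catsper1 was at 0.340% of WT, with an exact 95% interval of 0.136% to 0.702% that covers counting error only. The log2 difference was -4.70 (SE 0.19, limma adjusted p = 3.03e-07).

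Catsper2 (ENSMUSG00000033486, chromosome 2, bases 121392631 to 121413792, minus strand) encodes the pore subunit with the highest transcript level here. Its values were 155.5 and 124.7 FPKM in WT, 5.15 and 6.67 in KO, and 132.6 and 136.0 in EE_KO. Its KO level, from 342 and 428 reads, was 4.22% of WT and the highest of the 9 in FPKM. The log2 difference was -4.35 (SE 0.15, limma adjusted p = 1.32e-07). Its exons overlap those of Pdia3 on the other strand by 18 bases, and reads there cannot be assigned without strand.

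Catsper3 (ENSMUSG00000021499, chromosome 13, bases 55784568 to 55808998, plus strand) was at 17.5 and 23.0 FPKM in WT, 0.286 and 0.254 in KO, and 18.6 and 17.8 in EE_KO. Catsper4 (ENSMUSG00000048003, chromosome 4, bases 134211970 to 134227383, minus strand) was at 19.1 and 30.1 FPKM in WT, 0.159 and 0.164 in KO, and 24.8 and 24.3 in EE_KO. Both encode pore subunits needed for the channel current, and both rested on 6 or 7 reads in each KO library. The KO level was 1.33% of WT for Catsper3 (log2 difference -4.05, SE 0.16, limma adjusted p = 2.15e-07). For Catsper4 it was 0.658% (log2 difference -4.43, SE 0.20, limma adjusted p = 4.59e-07). Counting intervals from the reads were 0.704% to 2.28% of WT for Catsper3 and 0.336% to 1.14% for Catsper4, and that of Catsper2, 3.93% to 4.54%, lay above both.

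The auxiliary subunits fell to a narrower range of 2.57% to 4.26% of WT. Catsperb (ENSMUSG00000047014, chromosome 12, bases 101404653 to 101626009, plus strand) was at 32.4 and 25.8 FPKM in WT, 0.776 and 0.719 in KO, and 27.2 and 29.1 in EE_KO (KO minus WT -4.10, SE 0.14, limma adjusted p = 1.35e-07). Catsperd (ENSMUSG00000040828, chromosome 17, bases 56628143 to 56664456, plus strand) encodes a subunit needed for channel assembly and was at 118.3 and 95.0 FPKM in WT, 2.90 and 4.22 in KO, and 97.5 and 102.2 in EE_KO (KO minus WT -4.57, SE 0.17, limma adjusted p = 1.67e-07). Its KO libraries were spread more widely than those of Catsperb, and in both genes they stayed far below WT.

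Catsperg1 and Catsperg2 are copies of the gene for the gamma subunit, both on the minus strand of chromosome 7. Catsperg1 (ENSMUSG00000049676) covers bases 29181321 to 29214035, and Catsperg2 (ENSMUSG00000049123) covers bases 29697219 to 29727032. Catsperg1 was at 100.6 and 76.6 FPKM in WT, 3.42 and 4.13 in KO, and 81.0 and 87.7 in EE_KO. Catsperg2 was at 84.5 and 68.8 FPKM in WT, 2.33 and 3.02 in KO, and 71.4 and 81.1 in EE_KO. Both fell, with log2 differences of -4.22 and -4.40 (SE 0.15 each, limma adjusted p = 1.61e-07 and 1.28e-07). The ratio of Catsperg1 to Catsperg2 was 1.19 and 1.11 in WT, 1.47 and 1.37 in KO, and 1.13 and 1.08 in EE_KO. Of the 50-base windows in the longest coding transcripts, 41.0% of those of Catsperg1 and 38.0% of those of Catsperg2 occur in the other gene, so how the reads were split between them is uncertain. No other pair of members shared such a window.

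Kcnu1 (ENSMUSG00000031576, chromosome 8, bases 25849623 to 25937939, plus strand) fell as well. It was at 11.1 and 15.1 FPKM in WT, 0.402 and 0.370 in KO, and 10.8 and 12.4 in EE_KO. The KO level was 2.94% of WT, from 27 and 24 reads. Its log2 difference of -3.34 (SE 0.17, limma adjusted p = 8.82e-07) was the smallest of the 9 on a scale that shrinks low genes. In a voom fit on recovered reads it was -5.05, a larger fall than that of Catsper2 (-4.57) or Catsperg1 (-4.545). Lrrc52, the auxiliary subunit of the Kcnu1 channel, was at 8.19 and 10.3 FPKM in WT, listed at 0 and at 0.151 in KO, and 10.9 and 12.5 in EE_KO, and also fell (-3.25, SE 0.17, limma adjusted p = 8.82e-07).

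**Figure D2:**
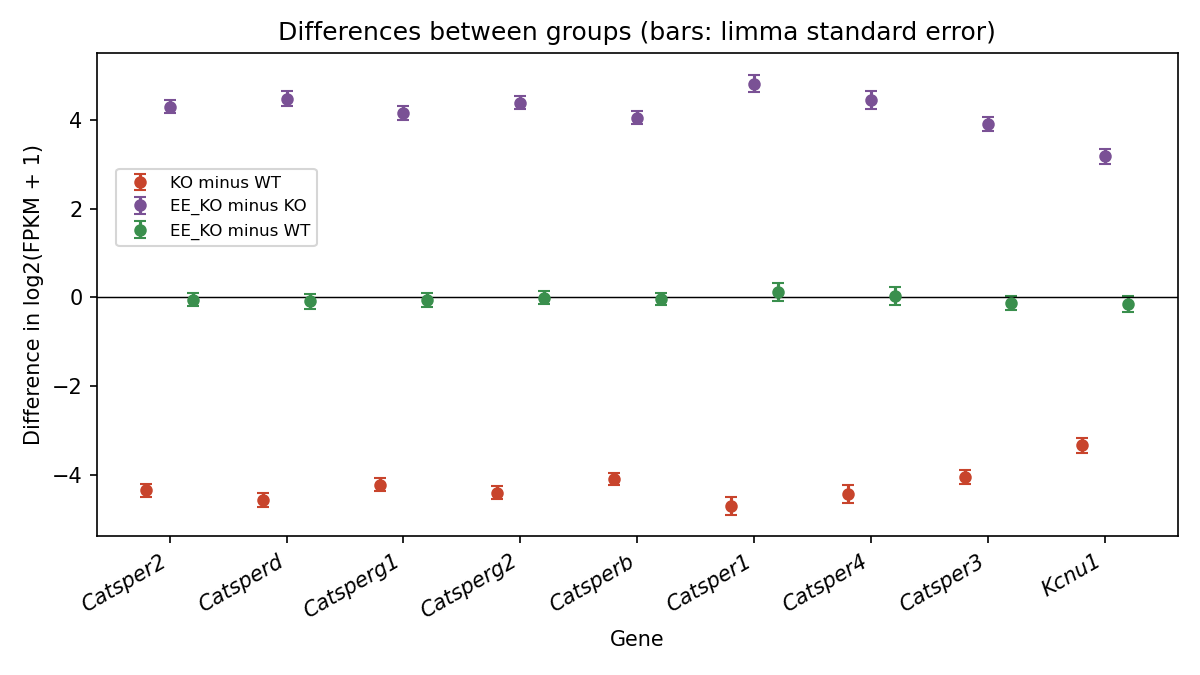
Differences between group means in log2(FPKM + 1) for each gene, with bars for limma's standard error, in KO minus WT, EE_KO minus KO and EE_KO minus WT. KO minus WT lies between -4.70 and -3.34, EE_KO minus KO between 3.19 and 4.83, and EE_KO minus WT between -0.15 and 0.12.

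All 9 transcripts were higher in EE_KO than in KO, by 22.4 to 311.5 times. With limma, 9 of 9 rose, against 47.8% of tested genes called higher, and no EE_KO library overlapped a KO library, which held for 51.7% of all tested genes. The log2 differences ran from 3.19 for Kcnu1 to 4.83 for Catsper1 (SE 0.14 to 0.20, limma adjusted p from 1.39e-07 to 1.22e-06). Their median was 4.30, against 0.26 over all tested genes. This comparison shares its KO libraries with the one above.

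Against WT, EE_KO levels were 88.6% of WT for Kcnu1 to 107.5% for Catsper1. With limma 0 of 9 were called at the adjusted threshold and 0 at an unadjusted p below 0.05, where the lowest p was 0.41. The background was 0.0455% of tested genes called in either direction (7 genes), and 1150 genes (7.48%) had an unadjusted p below 0.05. A voom fit on recovered reads also called 0 members. The log2 differences had 95% intervals within -0.55 to 0.58, so that differences beyond 0.683-fold lower or 1.49-fold higher on this scale lie outside the interval of every member. For Catsper1 the difference was 0.12 with an interval of -0.33 to 0.58, for Catsper2 -0.05 with -0.40 to 0.29, and for Kcnu1 -0.15 with -0.55 to 0.25. The sign of these small differences depended on single libraries. Without WT replicate 1 that of Catsper1 was -0.16 and that of Catsper2 0.11, and without WT replicate 2 they were 0.40 and -0.21.

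The members split by how the WT libraries differed. Catsper1, Catsper3, Catsper4 and Kcnu1 were higher in WT replicate 2 than in replicate 1, by 1.5, 1.32, 1.58 and 1.36 times. Catsper2, Catsperb, Catsperd, Catsperg1 and Catsperg2 were lower in WT replicate 2, at 0.802, 0.794, 0.803, 0.762 and 0.814 of replicate 1. Over all tested genes 46.2% were higher in WT replicate 2. The 12 spermatid markers were all higher in WT replicate 2 (summed 1726 FPKM in replicate 1 and 3532 in replicate 2). Of the 10 pachytene markers 3 were higher there (summed 7037 and 6525 FPKM). The pachytene ratios ran from 0.836 for Spink2 to 1.11 for Sycp1, above those of all members that were lower in WT replicate 2. The part of these marker differences in the members' split was not tested. In EE_KO the members' ratios of replicate 2 to replicate 1 were all between 0.957 and 1.17. Catsper3 and Catsper4 were lower in EE_KO replicate 2, at 0.957 and 0.982 of replicate 1, and the other 7 members were higher. All 12 spermatid markers (summed 2229 and 3273 FPKM) and all 10 pachytene markers were higher there.

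Of the first set, Catsper1, Catsper4 and Catsper3 had the lowest levels in KO relative to WT, but Kcnu1 lay above Catsperb of the other set. Catsper1, Catsper4 and Catsper3 were at 0.345%, 0.658% and 1.33% of WT, and Kcnu1 at 2.94%, while the other 5 were at 2.57% to 4.26%. The pore subunits summed to 214.5 and 211.5 FPKM in WT, 5.65 and 7.22 in KO, and 203.7 and 210.7 in EE_KO. Catsper2 made up 72.5% and 59.0% of that sum in WT, 91.2% and 92.3% in KO, and 65.1% and 64.6% in EE_KO. The ratio of Catsper1, Catsper3 and Catsper4 together to Catsper2 was accordingly 0.380 and 0.695 in WT, 0.0969 and 0.0837 in KO, and 0.537 and 0.549 in EE_KO. The KO libraries lay below both other groups in this ratio, which was formed after the values were seen. An exact permutation test of 2 against 2 libraries cannot go below p = 0.333, so none is given.

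**Figure D3:**
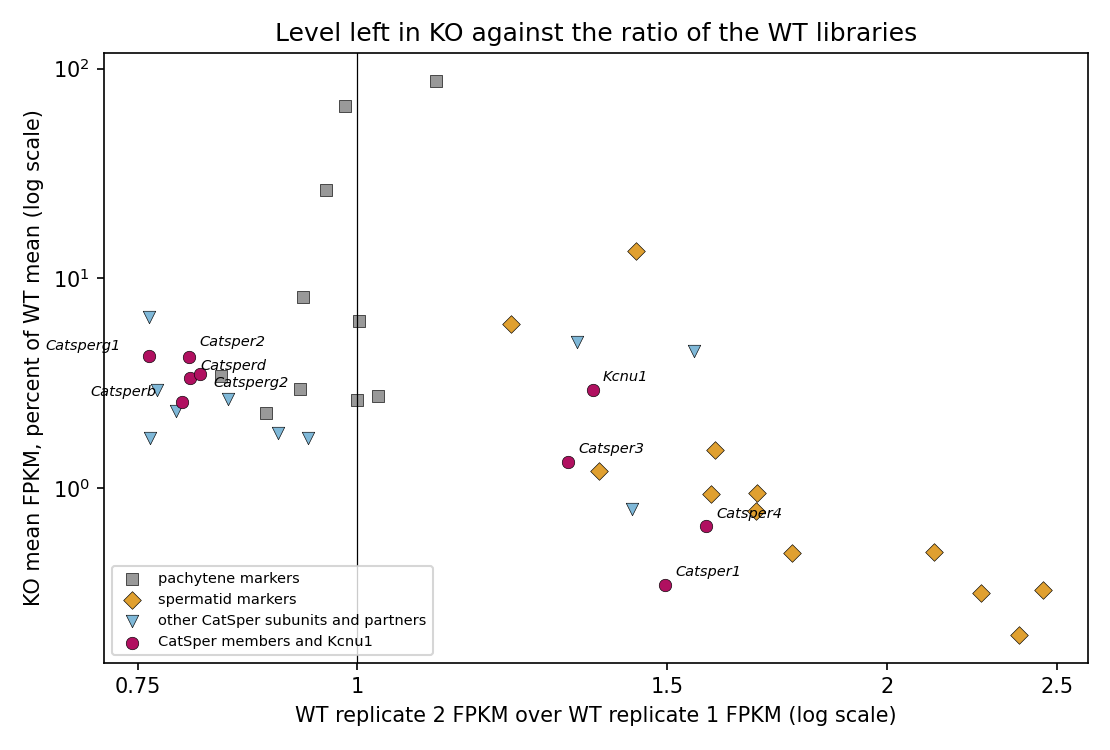
For each member, each other CatSper subunit or partner, and each pachytene and spermatid marker, the ratio of WT replicate 2 to WT replicate 1 (log axis) against the KO mean as a percent of the WT mean (log axis). Catsper1, Catsper3, Catsper4 and Kcnu1 lie on the right with the spermatid markers. The other 5 members lie on the left at 0.762 to 0.814, to the left of all pachytene markers (0.836 to 1.11).

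The other genes of the CatSper complex fell in KO as well. Of 14 names listed, 10 are in the files and were tested (the other 4 are older symbols), and 10 of 10 fell in KO against WT, where 48.1% of all tested genes were called lower, with a median log2 difference of -4.67. Catsperz, a small subunit needed for the quadrilateral arrangement of the channels, was the highest at 482.4 and 434.9 FPKM in WT, 7.41 and 9.36 in KO, and 395.1 and 424.9 in EE_KO (log2 difference -5.62). Efcab9, the calcium-sensing partner of Catsperz, was at 25.5 and 39.6 FPKM in WT and 1.44 and 1.49 in KO. Tmem249, a subunit of the complex, was at 19.0 and 27.3 FPKM in WT and 0.102 and 0.265 in KO. C2cd6, which takes part in targeting the complex to the flagellum, had a log2 difference of -4.95. The differences were -4.54 for Catspere1, -3.37 for Catspere2, -2.30 for Tmem262, -5.36 for C2cd6b, -4.79 for Slco6c1 and -5.22 for Trim69. Of these partners Efcab9, Tmem249 and Tmem262 were higher in WT replicate 2, and the other 7 were lower. In EE_KO against KO 10 of 10 rose, where 47.8% of all tested genes were called higher. Against WT 0 of 10 were called by limma, as were 0.0455% of all tested genes.

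Genes for potassium, proton and bicarbonate transport in sperm fell in 7 of 8 tested, against 48.1% of all tested genes, with a median of -4.16. The filter uses the mean over all libraries, so it keeps genes high in WT and EE_KO more readily than genes high only in KO. It left out 4 of the 12 genes in the files, and all 4 had a higher mean in KO. KO and WT means were 0.829 and 0.0849 FPKM for Hvcn1 and 1.13 and 0.419 for Kcnma1. They were 0.036 and 0.0125 for Slc9b2 and 0.0798 and 0.0544 for Slc26a3. Slc9c1, the sperm sodium/proton exchanger, went from 85.0 and 61.7 FPKM in WT to 1.02 and 1.53 in KO. Slc26a8, an anion transporter of sperm, was the highest of the list in WT at 93.9 and 76.7 FPKM and was at 3.93 and 5.58 in KO. The log2 difference was -5.01 for Atp1a4, the sodium pump isoform of sperm, -4.45 for Slc9b1, -4.40 for Adcy10, the bicarbonate-activated adenylyl cyclase, and -1.49 for the chloride channel Cftr. Slc26a6, a broadly expressed anion exchanger, rose, against 38.0% of tested genes called higher, from 0.409 and 0.488 FPKM to 1.95 and 2.06 (1.05 on the log2 scale, limma adjusted p = 0.000228). In EE_KO against KO 7 rose and Slc26a6 fell, where 47.8% of tested genes were called higher and 37.8% lower. Against WT 0 of 8 were called (0.0455% of all tested genes).

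Other calcium and cation channels and pumps included genes that fell and genes that rose. In KO against WT 5 of 8 fell and 3 rose, with a median of -0.81, which is near the shares over all tested genes (48.1% lower and 38.0% higher). Cacna1h, a T-type calcium channel, went from 98.8 and 77.1 FPKM to 4.42 and 4.39, and Pkdrej, a polycystin family protein of sperm, from 26.3 and 20.5 to 0.496 and 0.538. The log2 difference was -2.43 for Pkd2l1, -1.27 for Cacna1i and -0.36 for the calcium pump Atp2b4 (limma adjusted p = 0.0348). The Atp2b4 difference turned to 0.10 with TPM and 0.16 with quantile scaling and was then not called (limma adjusted p = 0.429 and 0.221). The genes that rose were P2rx2, an ATP-gated channel, from 8.35 and 7.44 FPKM to 81.8 and 73.2, Ano1, a calcium-activated chloride channel, from 2.81 and 3.84 to 29.6 and 23.6, and Atp2c1, a Golgi calcium pump, from 1.83 and 1.98 to 6.70 and 6.26. In EE_KO against KO 4 rose and those 3 fell (47.8% and 37.8% over all tested genes). Atp2b4 was at 0.18 there (limma adjusted p = 0.237), and at -0.29 with quantile scaling (limma adjusted p = 0.048). Against WT 0 of 8 were called (0.0455% of all tested genes). The Sertoli and Leydig marker sums given above rose in the same KO libraries, and their part in the 3 rises was not tested.

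Calcium and cAMP signalling genes of sperm fell in 9 of 10, against 48.1% of all tested genes, with a median of -4.08. Ppp3r2, a testis calcineurin subunit, went from 279.7 and 229.7 FPKM to 3.66 and 4.53, and Plcz1, the sperm phospholipase that activates the egg, from 21.3 and 31.8 to 0.288 and 0.206. The log2 difference was -5.60 and -6.12 for the kinase-anchoring proteins Akap3 and Akap4, -4.72 for Cabs1, -3.71 for Cabyr, -3.47 for Plcd4 and -2.43 for Ppp3cc. Akap4 is also counted among the spermatid markers. Prkaca, the catalytic subunit of protein kinase A, was at 80.6 and 66.7 FPKM in WT and 63.6 and 57.1 in KO (-0.28, limma adjusted p = 0.0627), but 0.19 with TPM and 0.45 with quantile scaling (limma adjusted p = 0.139 and 0.00566). In EE_KO against KO 9 rose, where 47.8% of all tested genes were called higher. Prkaca was at 0.19 there (limma adjusted p = 0.187), and at -0.45 with quantile scaling (limma adjusted p = 0.00545). Against WT 0 of 10 were called (0.0455% of all tested genes).

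**Figure D4:**
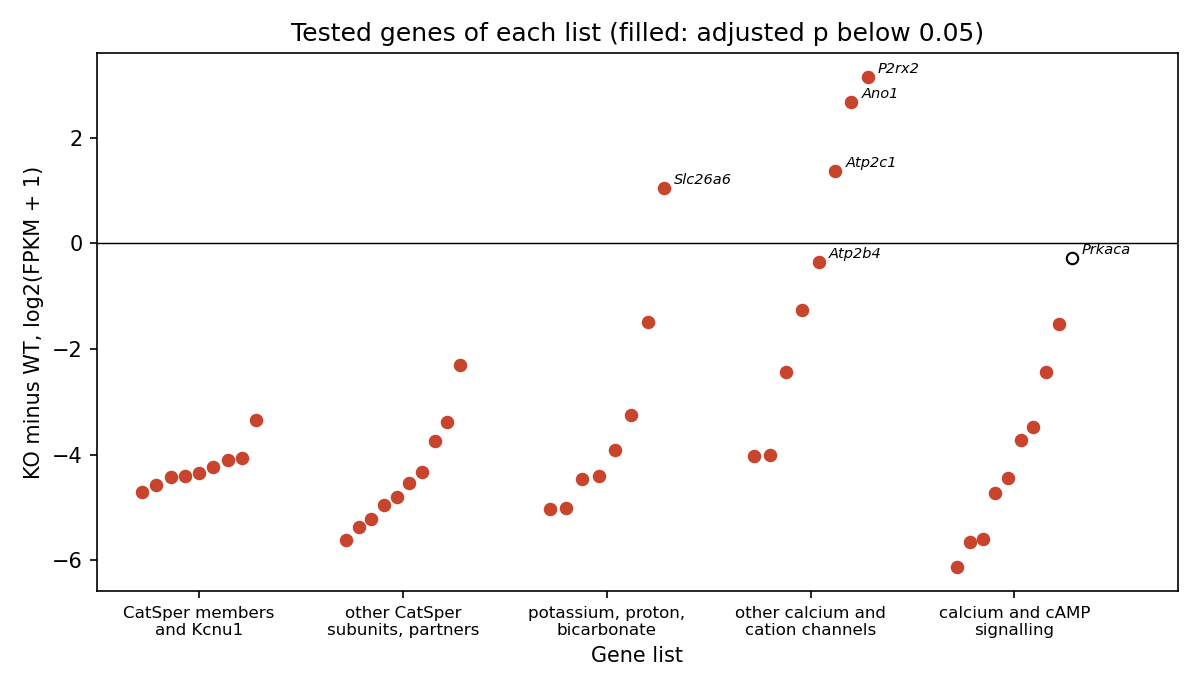
KO minus WT difference in log2(FPKM + 1) for each tested gene of the members and the 4 other lists, with filled points for a limma adjusted p below 0.05. All 9 members and all 10 CatSper partners lie below 0, and Slc26a6, Atp2c1, Ano1 and P2rx2 lie above it, while Atp2b4 and Prkaca, at -0.36 and -0.28, lie near it and change sign with TPM or quantile scaling.

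The genes nearest to the mean pattern of the members were found by distance. Likeness was measured as the Euclidean distance, over 6 libraries, between a gene's log2(FPKM + 1) centred on its own mean and the mean centred profile of the 9 members, among 11568 protein-coding candidates. Ttc21a was closest at 0.0793, with 44.7 and 49.2 FPKM in WT, 1.39 and 1.70 in KO, and 44.4 and 48.3 in EE_KO. Oscp1 at 0.135, Mycbpap at 0.164, Igbp1b at 0.170 and Tprn at 0.172 followed. The members themselves lay at 0.310 for Catsperg1 to 1.15 for Kcnu1, with Catsper1 at 0.752, all farther than the genes just named. The mean profile averages members higher in WT replicate 2 (1.32 to 1.58 times) with members lower there (0.762 to 0.814 of replicate 1). A gene near that mean is therefore not necessarily like any single member. In all, 647 candidates lay within a distance of 1, where the median candidate was at 4.99.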

How the data were processed

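RNA from 6 libraries of STA-PUT fractions labelled as pachytene cells (WT, KO and EE_KO, 2 each) was prepared with a SMARTer kit from 1.3 µg of total RNA, per the labels' protocols. The deposited values are FPKM, per the file headers. The submitters' processing notes name GRCm38 and mm10. Strand, annotation release, counter and aligner were not given in the sources used here. Symbols, positions and exon lengths came from GENCODE M21, which matched 54495 of 54532 genes. FPKM times exon length gave whole reads for 96.8% to 97.0% of values above 0 (tolerance 0.01), which set the depth.

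The test covered 15368 genes whose FPKM averaged 1 or more across libraries, leaving aside 533 short RNA genes and 6 repeated symbols. A single linear model held the 3 groups, fitted to log2(FPKM + 1) by limma (version 3.58.1, under R 4.3.3) with its trend option and no replicate block. P-values were Benjamini-Hochberg adjusted over all genes tested. All 9 members passed the filter. The script was tested on simulated data in which 14198 of 14398 genes were left unchanged. That setting is unlike KO against WT and does not bear on the scaling of those libraries. In addition, 16 alternatives were tried. Pathway genes were named where they passed in any comparison or were highest in WT in their list. The nearest 5 genes by distance were also named. Of the calcium and cAMP signalling list, 1 counted gene is not reported here. Members and lists were chosen with earlier results of these data known. A planned protein comparison was not made, and shared 50-base transcript windows took its place.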

Additional observations from a re-analysis of the deposited data

How the results depend on the processing

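The counts of members called (9 in KO against WT, 0 in EE_KO against WT, 9 in EE_KO against KO) were the same under all 16 alternatives. These covered the pseudocount, the filter, TPM and quantile scaling, fits of only the groups compared, no trend, voom on recovered reads, and leaving out each library in turn, where a lone library is assumed to vary like the other groups. TPM moved the median of all tested genes in KO against WT from -0.29 to 0.12 and quantile scaling to 0.03, and the split of calls from 48.1% lower and 38.0% higher to 41.2% and 44.8% with TPM. Every member stayed lower in KO under both. Of the other genes in the lists, Atp2b4, Prkaca, Sycp1 and Sycp3 changed call or sign with TPM or quantile scaling, which was checked after seeing the data. With replicate number as a block, the counts of members called were again 9, 0 and 9. The differences of replicate 1 minus replicate 2 within each group were correlated between groups. The correlations were -0.0307 (WT and KO), 0.054 (WT and EE_KO) and 0.0909 (KO and EE_KO), so the numbers were not taken to pair libraries. The block and the other settings moved the count of all genes called in EE_KO against WT, which was 7: it was 2 with the block, and 0 to 19 on leaving out single libraries (19 without EE_KO replicate 1). The cause was not tested.

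For EE_KO against WT the sign changed with TPM for Catsperb (0.0076) and Catsperg2 (0.043), and with quantile scaling for Catsper2 (0.047), Catsperb (0.0135), Catsperg1 (0.0114) and Catsperg2 (0.075). On leaving out a library the difference ranged from -0.16 to 0.40 for Catsper1, -0.21 to 0.11 for Catsper2, -0.32 to 0.056 for Catsper3, -0.28 to 0.35 for Catsper4, -0.20 to 0.12 for Catsperb, -0.24 to 0.070 for Catsperd, -0.25 to 0.14 for Catsperg1, -0.15 to 0.14 for Catsperg2 and -0.36 to 0.056 for Kcnu1. No member was called in any of these. Depth limits the KO values of Catsper1, Catsper3 and Catsper4, which rest on 2 to 7 reads a library, and the log2 difference in KO against WT ranged over the alternatives from -8.17 to -4.15 for Catsper1, -7.10 to -3.85 for Catsper4, -6.12 to -3.48 for Catsper3 and -5.05 to -2.82 for Kcnu1.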

Other observations

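Channel and transporter genes of the lists that did not reach the expression filter are given as values only. Hvcn1, the voltage-gated proton channel, was at 0.0401 and 0.130 FPKM in WT, 1.11 and 0.549 in KO, and 0.0767 and 0.150 in EE_KO. Kcnma1, the large-conductance potassium channel related to Kcnu1, was at 0.471 and 0.366 FPKM in WT, 1.29 and 0.973 in KO, and 0.430 and 0.362 in EE_KO. Both were low in WT and EE_KO, in contrast to Kcnu1 at 11.1 and 15.1 FPKM in WT. Cacna1g, a T-type calcium channel, was at 0.810 and 0.697 FPKM in WT, 0.0659 and 0.0454 in KO, and 0.424 and 0.270 in EE_KO. Trpm8, a cold-sensitive channel, was at 0.362 and 0.349 FPKM in WT and 0.0353 and 0.0122 in KO. Trpv4 was at 0.0876 and 0.211 FPKM in WT and 0.560 and 0.692 in KO. Slc9b2, Slc26a3 and Cacna1e stayed at or below 0.0405, 0.147 and 0.119 FPKM. Trpc2 was listed at 0 in all 6 libraries.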
